A study of Mus musculus with 72 samples.

Results

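Pim1, Pim2 and Pim3 encode the Pim family of serine/threonine kinases, and their transcripts were followed here through 16 groups of mouse acute promyelocytic leukaemia (APL) before and after retinoic acid. The 3 genes were chosen by symbol from the array's annotation, out of 19938 genes that had a probe set with 1 symbol. The rule kept the brightest probe set of each symbol, and each Pim gene had 1 probe set, so no measured value entered the choice of probe set. The family was proposed with earlier results of these data in view, among them the fall of Pim2 in leukaemia driven by PLZF/RARA. The values of Pim2 that rest on that fall are therefore given as a description, with no test.

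The 72 arrays each measured the total RNA of a bone marrow sample of an APL mouse, and the extraction protocol speaks of tumour samples. Transgenic leukaemias carried the fusion PML/RARA or PLZF/RARA on a Pml wild-type background. The other leukaemias had PML/RARA introduced by viral transduction, on a background labelled Pml wild type or pml-/- (Pml null). Each of these 4 leukaemia types was left untreated or given retinoic acid (RA), the vitamin A derivative that binds the RARA part of the fusion, and sampled at 6 h or 12 h. At both times, transgenic PML/RARA was measured on 4 arrays without and 8 with RA, and transgenic PLZF/RARA on 2 without and 4 with RA. For each viral background these numbers were 4 and 8 at 6 h, then 2 and 4 at 12 h. The labels give neither the promoter that drives the transgenes nor the dose of RA, and are silent on whether each array stands for its own animal, so that p-values measure the spread between these arrays. In bulk marrow, fewer cells of a type and less RNA per cell cannot be told apart.

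The labels number 4 batches. Batch 1 holds all 8 transgenic groups and batch 3 all 8 viral groups, while batch 2 adds arrays of transgenic PML/RARA at 6 h and batch 4 arrays of the viral leukaemias at 6 h. The mean log2 level of 6 promyelocyte markers lay between 11.4 (untreated viral Pml null) and 12.7 (both PML/RARA types with a Pml wild-type background after RA). Cyp26a1, the retinoid-degrading enzyme that RA induces directly, was raised by 3.36 to 5.76 log2 units in the 8 comparisons of RA with untreated arrays. Pml itself read 9.31 ± 0.17 (SD, n = 6) in the untreated viral leukaemias labelled Pml null and 9.35 ± 0.09 (SD, n = 6) in those labelled wild type. The position of this probe set relative to the deleted part of Pml is not given in the sources used here, so it does not check the label, and the groups are named by their labels below.

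Pim kinases are short-lived enzymes that are active as soon as they are made, because they need no activating phosphorylation, and their output is set largely by transcription and protein turnover. Cytokine receptors induce Pim genes through Janus kinases and STAT factors, and NF-κB induces Pim genes as well. The kinases phosphorylate regulators of apoptosis, of the cell cycle and of cap-dependent translation, and overlap in their targets with the AKT kinases. Pim1 was first found as a common site of retroviral insertion in mouse lymphoma, and all members of the family can act as oncogenes in blood cells.

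Pim1 lies on chromosome 17 (chr17:29490785-29496111), Pim2 on the X chromosome (chrX:7878306-7883432) and Pim3 on chromosome 15 (chr15:88862194-88865726), in RefSeq's annotation of GRCm38.p6, each on the forward strand. The 250 bases before each start, as RefSeq gives them, are shown so that the proximal promoters of genes that moved in different directions under RA can be compared. Capitals mark, on either strand, the GC box (GGGCGG), the CCAAT box (CCAAT), a retinoid receptor hexamer (AGGTCA) and the octamer (ATGCAAAT), and no marked matches overlap.
Pim1, chr17:29490535-29490784: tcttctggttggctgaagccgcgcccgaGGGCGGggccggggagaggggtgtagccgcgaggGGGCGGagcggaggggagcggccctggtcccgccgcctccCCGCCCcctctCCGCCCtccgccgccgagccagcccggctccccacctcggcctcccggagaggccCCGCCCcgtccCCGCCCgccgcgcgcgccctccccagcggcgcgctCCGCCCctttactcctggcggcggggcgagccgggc
Pim2, chrX:7878056-7878305: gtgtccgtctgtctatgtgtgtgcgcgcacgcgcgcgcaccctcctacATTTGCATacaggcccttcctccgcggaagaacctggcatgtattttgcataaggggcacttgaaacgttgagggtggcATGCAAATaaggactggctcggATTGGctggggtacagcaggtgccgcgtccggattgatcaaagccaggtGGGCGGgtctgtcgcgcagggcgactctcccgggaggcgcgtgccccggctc
Pim3, chr15:88861944-88862193: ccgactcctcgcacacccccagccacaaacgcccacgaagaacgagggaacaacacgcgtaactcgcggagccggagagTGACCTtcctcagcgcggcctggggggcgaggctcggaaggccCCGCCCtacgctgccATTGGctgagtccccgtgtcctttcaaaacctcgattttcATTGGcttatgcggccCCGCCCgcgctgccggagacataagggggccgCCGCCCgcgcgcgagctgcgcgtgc

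These windows were rich in G and C, at 82.4% for Pim1, 62% for Pim2 and 68% for Pim3. The Pim1 window held 7 GC boxes and neither a CCAAT box nor an octamer. The Pim2 window held 2 octamers, the motif read by POU factors such as those of lymphoid cells, with 1 CCAAT box and 1 GC box. The octamer was added to the search after the sequence had been read. The Pim3 window held 3 GC boxes, 2 CCAAT boxes and 1 AGGTCA hexamer, written as TGACCT on the strand shown. Among 32841 RefSeq windows of this length, 32.7% held the GC box, 33.9% the CCAAT box, 14% the AGGTCA hexamer and 1.6% the octamer. The STAT motif TTCNNNGAA, on both strands, was in 7.02% of windows and was not found in these 3, which says only that these letters are absent from them. RefSeq lists a second Pim1 start within the gene, and its window held none of the 5 motifs searched.

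**Figure D1:**
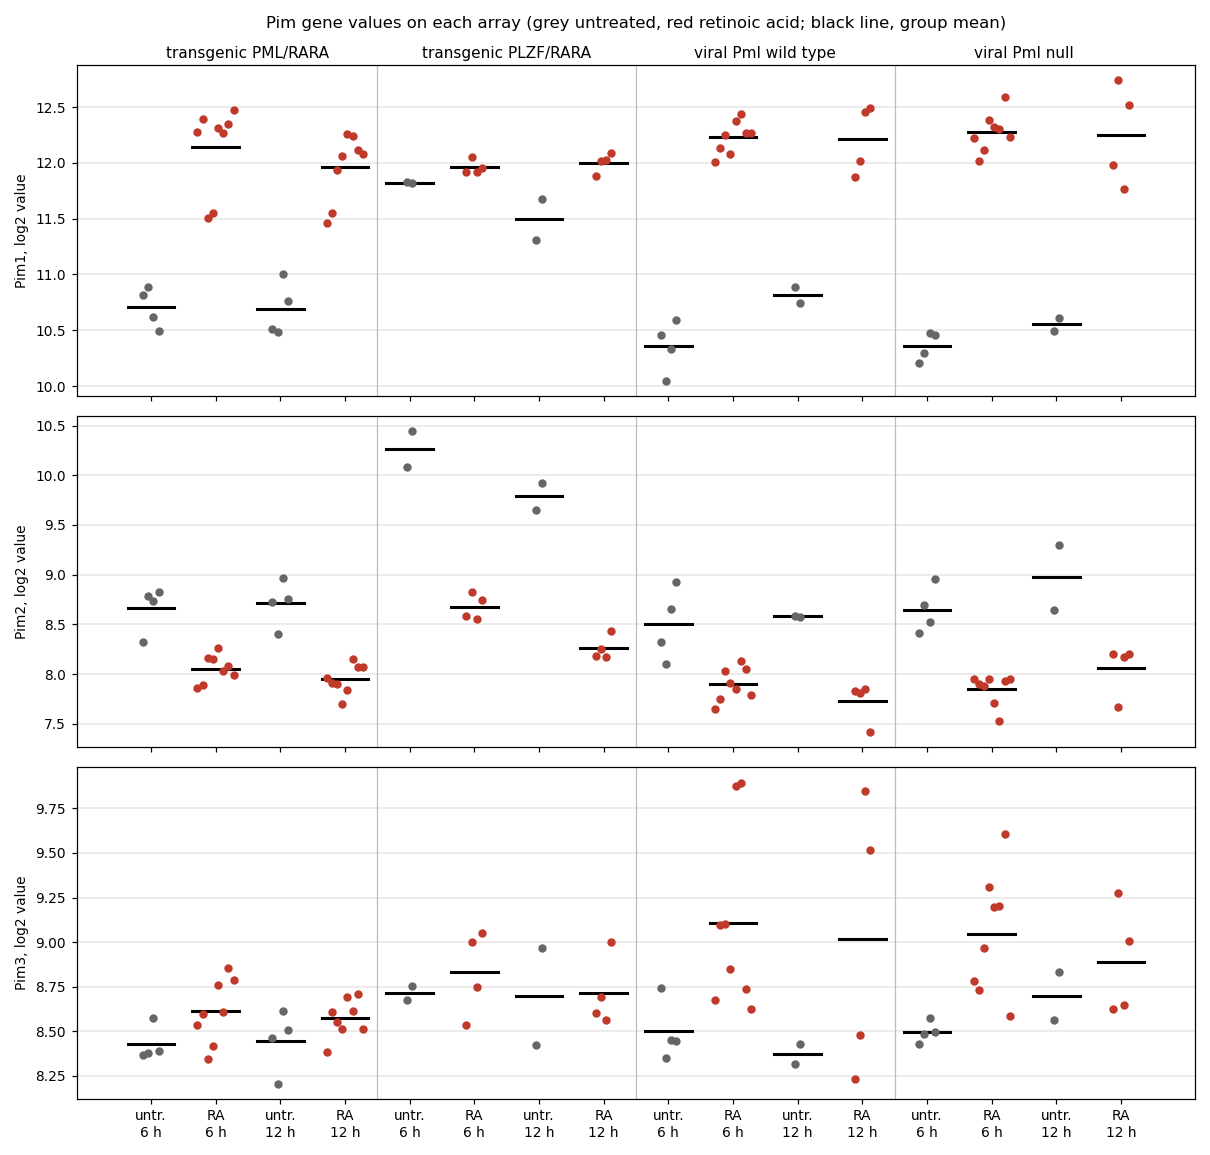
The log2 value of Pim1 (top), Pim2 (middle) and Pim3 (bottom) is drawn for each of the 72 arrays (points) in 16 groups, with group means as black lines. Pim1 separates untreated (grey) from RA arrays (red) in the 3 PML/RARA types, by a wider gap in the viral ones than in the transgenic one. Pim2 is highest in untreated PLZF/RARA, and Pim3 spreads from 8.23 to 9.89 within the RA-treated viral arrays with a Pml wild-type background.

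Pim1, the founding member of the family, rose after RA in all 3 leukaemia types driven by PML/RARA and at both times. In transgenic PML/RARA at 6 h the untreated arrays read 10.82, 10.89, 10.62 and 10.49, and the 8 RA arrays read from 11.51 to 12.48 with a median of 12.29. Each RA array lay above each untreated array, although 2 of the 8, at 11.51 and 11.55, stood well below the other RA arrays. The change was 1.504 ± 0.154 log2 units (SE, limma adjusted p = 5.16e-09), a 2.84-fold rise with a 95% confidence interval of 2.28 to 3.53. Genes that rose made up 5.81% of all genes in this comparison, and Pim1 ranked 72nd among all rises by size. The rise was 1.52 within batch 1 and 1.48 within batch 2.

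Untreated transgenic PML/RARA arrays at 12 h read 10.51, 10.49, 11.004 and 10.76 for Pim1, and the RA arrays from 11.46 to 12.26 with a median of 12.07. The groups did not overlap, and again 2 RA arrays, at 11.46 and 11.55, were the lowest. Pim1 was 1.27 ± 0.15 higher (adjusted p = 4.45e-08, 2.42-fold), where 9.88% of genes rose. The RA effect at 12 h differed from that at 6 h by -0.23 ± 0.21 (adjusted p = 0.856), where 0.231% of genes passed the threshold.

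Pim1 also rose in both viral leukaemias, which were fitted apart from the transgenic ones and not tested against them. With wild-type Pml at 6 h, untreated arrays read 10.46, 10.05, 10.33 and 10.59, and RA arrays from 12.01 to 12.44 with a median of 12.26, more than 1 log2 unit above the highest untreated array. The effect was 1.87 ± 0.13 (adjusted p = 3.46e-12, 3.66-fold, 5.44% of genes rose), with 1.88 within batch 3 and 1.87 within batch 4. With Pml null at 6 h, untreated arrays read 10.21, 10.30, 10.47 and 10.46 and RA arrays from 12.02 to 12.59 with a median of 12.27. The effect of 1.92 ± 0.13 (adjusted p = 1.53e-12, 3.77-fold, 4.97% of genes rose) was the largest of the 8 for Pim1 and came to 1.90 within batch 3 and 1.93 within batch 4. The wild-type arrays at 12 h moved from 10.89 and 10.74 to 11.88, 12.02, 12.46 and 12.49, a change of 1.397 ± 0.180 (adjusted p = 5.04e-06, 3.03% of genes rose). The Pml null arrays moved from 10.49 and 10.61 to 11.98, 12.75, 11.76 and 12.52, a change of 1.70 ± 0.18 (adjusted p = 1.66e-07, 4.22% of genes rose). None of these groups overlapped.

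Markers of other cell types moved with RA in some of these comparisons. In transgenic PML/RARA at 12 h, 9.88% of all genes rose and 11.7% fell, with a median over all genes of -0.01. There 4 of 5 erythroid markers rose (median 0.84), as did 3 of 8 stroma and endothelium markers (median 0.43). Of 7 monocyte and macrophage markers 2 rose (median 0.30), and of 10 mature neutrophil markers 3 rose and 1 fell (median 0.33). Among 5 megakaryocyte and platelet markers 1 rose, and among 8 B and plasma cell markers 1 fell. In viral Pml null at 12 h, 4.22% of all genes rose and 1.83% fell (median 0.01). Of 10 mature neutrophil markers 4 rose there (median 0.89). In the same comparison 2 of 8 stroma and endothelium markers and 1 of 8 T and NK cell markers fell. In PLZF/RARA at 12 h, 2.46% of all genes rose and 1.57% fell (median -0.05). Of 10 mature neutrophil markers 4 rose there (median 0.57), as did 2 of 8 stroma and endothelium markers. So did 2 of 7 monocyte and macrophage markers and 1 of 8 T and NK cell markers. In viral Pml wild type at 12 h, 1 of 10 mature neutrophil markers rose (3.03% of all genes). At 6 h each list of other cell types had at most 1 marker that rose and 1 that fell in any leukaemia type. Of all genes 1.45% to 5.81% rose and 0.747% to 8.54% fell at that time. The part of these markers in the RA effects on the Pim genes was not tested.

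PLZF/RARA, the fusion of the RA-resistant form of the disease, gave another picture for Pim1. At 6 h the untreated arrays already read 11.83 and 11.82, and the RA arrays read 11.92, 12.05, 11.92 and 11.96. The change of 0.14 ± 0.21 did not pass the threshold (adjusted p = 0.811, 95% interval -0.29 to 0.57, 1.45% of genes rose). At 12 h the untreated arrays read 11.31 and 11.68 and the RA arrays 11.88, 12.01, 12.03 and 12.09. That change of 0.51 ± 0.21 had an unadjusted 95% interval of 0.08 to 0.94. It did not pass the threshold (adjusted p = 0.213, 2.46% of genes rose). All RA arrays lay above all untreated arrays at both times, at 6 h by a narrow margin (11.83 against 11.92). With 4 RA and 2 untreated arrays per time, this separation is a description and no test. The share of all genes that separate in this way was not counted, here or in the other comparisons.

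**Figure D2:**
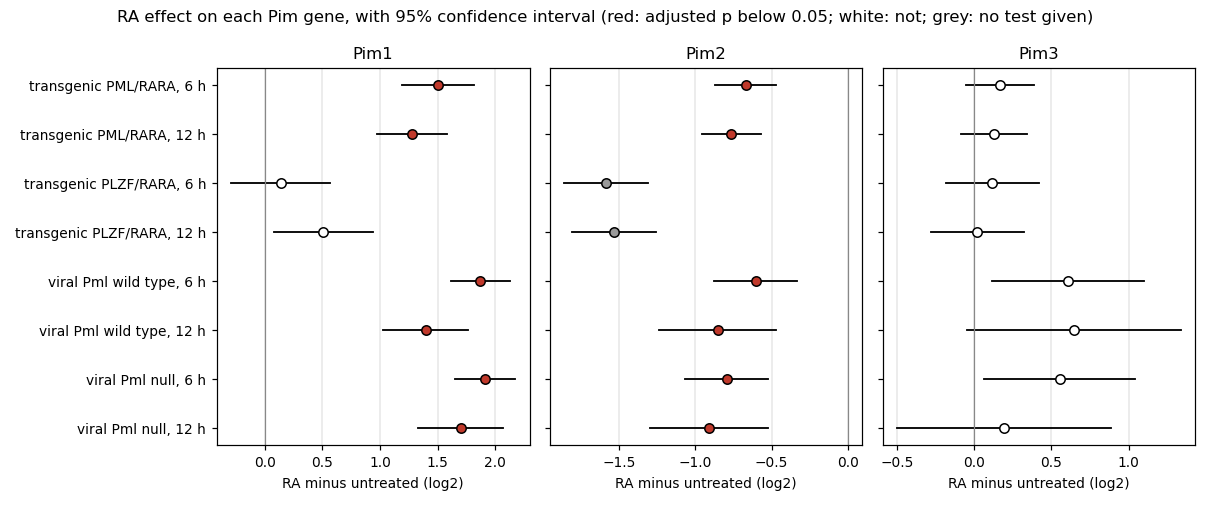
The RA effect on Pim1, Pim2 and Pim3 (RA minus untreated, log2) is drawn with its 95% confidence interval for 4 leukaemia types at 6 h and 12 h. Red points passed an adjusted p of 0.05, white points did not, and the grey Pim2 points of PLZF/RARA (-1.58 and -1.53) carry no test because they were known beforehand.

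The RA effect on Pim1 differed between the fusions. Averaged over both times it was 1.07 ± 0.18 log2 units larger in transgenic PML/RARA than in PLZF/RARA (adjusted p = 0.000234), where 7.42% of genes differed in this way. The difference was 1.37 ± 0.26 at 6 h (adjusted p = 0.00314, 1.51% of genes) and 0.77 ± 0.26 at 12 h (adjusted p = 0.109, 2.93% of genes). Over 18 fits that each left out 1 array, the 12 h difference ran from 0.58 to 0.95, and 1 of them passed. That fit left out PML/RARA RA replicate 1 at 12 h, the lowest Pim1 value of its group (0.84, adjusted p = 0.0454).

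Before treatment, Pim1 was 1.03 ± 0.15 lower in PML/RARA than in PLZF/RARA (adjusted p = 2.14e-06, and -1.03 within batch 1), where 25.3% of genes differed. The 8 untreated PML/RARA arrays read from 10.49 to 11.004 with a median of 10.69, and the 4 PLZF/RARA arrays read 11.31, 11.68, 11.83 and 11.82, without overlap. After RA the fusions met: the difference was 0.04 ± 0.11, with a 95% interval of -0.18 to 0.26 (adjusted p = 0.82), in a comparison where 43.7% of genes differed. The comparison of RA-treated arrays was added after the values had been seen. Transgenic markers of other cell types moved with the fusion as well: the mean level of 5 erythroid markers was 9.001 in untreated PML/RARA and 7.01 in untreated PLZF/RARA, and that of 8 T and NK cell markers was 7.40 and 6.66. Their part in the Pim1 difference was not tested.

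In order of level within the transgenic model, Pim1 was lowest in untreated PML/RARA at 12 h (10.69) and 6 h (10.71), which overlapped, followed by untreated PLZF/RARA at 12 h (11.49) and 6 h (11.82). The 4 RA groups came next, from 11.96 (PLZF/RARA, 6 h) to 12.14 (PML/RARA, 6 h), and each overlapped its neighbour. In the viral model the 4 untreated groups ran from 10.36 to 10.81 and the 4 RA groups from 12.21 to 12.27, with no difference among RA neighbours beyond their spread.

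**Figure D3:**
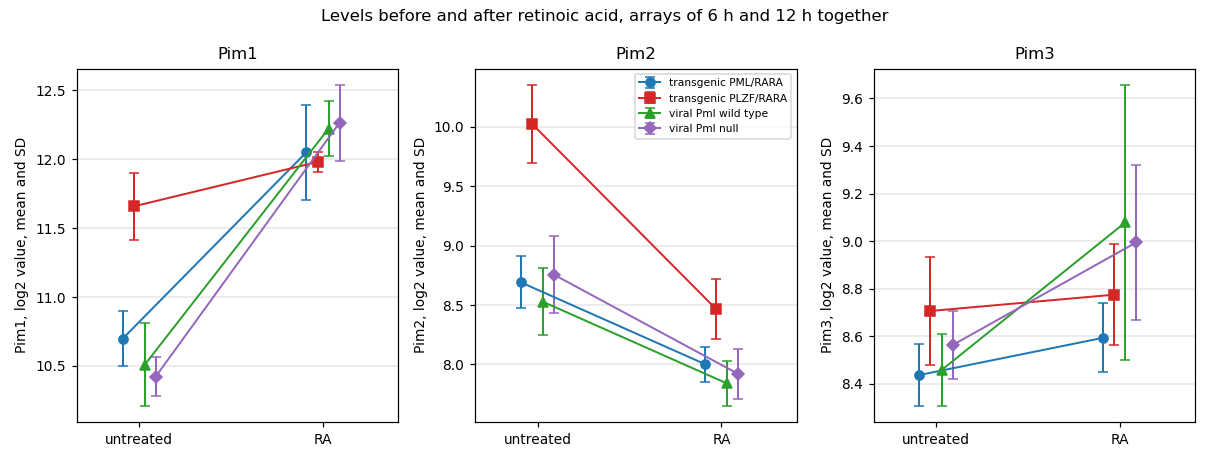
Mean and SD of each Pim gene (log2) before and after RA in the 4 leukaemia types, with 6 h and 12 h arrays together (4 to 8 untreated and 8 to 16 RA arrays). Pim1 starts at 11.66 in PLZF/RARA against 10.42 to 10.70 in the other types and ends between 11.98 and 12.27 in all of them, while the Pim2 line of PLZF/RARA lies above the others at both ends.

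Pim2, which shares most targets with Pim1 and is best known from lymphoid and plasma cells, moved the other way. It fell after RA in the 3 PML/RARA types at both times. In transgenic PML/RARA at 6 h the untreated arrays read 8.32, 8.78, 8.73 and 8.83, and the RA arrays from 7.87 to 8.26 with a median of 8.06, so that the highest RA array lay just below the lowest untreated one. The change was -0.67 ± 0.10 (adjusted p = 5.11e-06), a 1.59-fold fall with an interval of 1.39 to 1.83, where 8.54% of genes fell, and it was -0.67 within batch 1 and -0.68 within batch 2. At 12 h the untreated arrays read 8.73, 8.40, 8.97 and 8.76 and the RA arrays from 7.70 to 8.15 with a median of 7.94, again without overlap. The change was -0.76 ± 0.10 (adjusted p = 1.44e-07, 11.7% of genes fell).

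In the viral leukaemia with wild-type Pml at 6 h, Pim2 read 8.32, 8.10, 8.65 and 8.92 untreated and from 7.65 to 8.13 with a median of 7.88 after RA. The groups overlapped, with 7 of 8 RA arrays below all untreated ones. The change of -0.60 ± 0.13 passed the threshold (adjusted p = 0.0024, 4.44% of genes fell), but it was -0.83 within batch 3 and -0.38 within batch 4, where it did not (adjusted p = 0.0959). With Pml null at 6 h, untreated arrays read 8.41, 8.69, 8.53 and 8.95 and RA arrays from 7.53 to 7.95 with a median of 7.92. That fall, -0.79 ± 0.13 (adjusted p = 8.63e-05, 6.38% of genes fell), showed no overlap and was -0.96 within batch 3 and -0.63 within batch 4.

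At 12 h, with wild-type Pml, Pim2 read 8.59 and 8.57 untreated and 7.83, 7.81, 7.85 and 7.42 after RA, a change of -0.85 ± 0.19 (adjusted p = 0.00456, 3.07% of genes fell). With Pml null it read 8.64 and 9.30 untreated and 8.20, 7.67, 8.17 and 8.20 after RA, a change of -0.91 ± 0.19 (adjusted p = 0.00185, 1.83% of genes fell). Both pairs of groups were apart, yet each call rested on 2 untreated arrays. Leaving out wild-type untreated replicate 1 or 2 kept the value at -0.85 or -0.86 and ended the call (adjusted p = 0.079 and 0.0779). Leaving out Pml null untreated replicate 2, the array at 9.30, gave -0.58 (adjusted p = 0.284), and fitting only the 2 groups compared gave -0.91 with an adjusted p of 0.0752. In these fits a lone untreated array is assumed to vary like the arrays of the other groups.

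The widest movement of Pim2 was in PLZF/RARA, and it is described without a test. At 6 h the untreated arrays read 10.08 and 10.44 and the RA arrays 8.59, 8.82, 8.56 and 8.74. At 12 h the untreated arrays read 9.65 and 9.92 and the RA arrays 8.18, 8.25, 8.17 and 8.44. The lowest untreated array stood more than 1 log2 unit above the highest RA array at each time. The changes were -1.58 ± 0.13 and -1.53 ± 0.13, a 3.00-fold and a 2.89-fold lower level. Their rank among all falls is not given, because the family was proposed with this fall in view. Falls that passed the threshold made up 0.747% of genes at 6 h and 1.57% at 12 h. The RA effect in PML/RARA was smaller by 0.84 ± 0.12 on average over both times, by 0.91 ± 0.17 at 6 h and by 0.77 ± 0.16 at 12 h.

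The untreated level set PLZF/RARA apart for Pim2 as well. Untreated PML/RARA arrays read from 8.32 to 8.97 with a median of 8.75, and the 4 untreated PLZF/RARA arrays read 9.65, 9.92, 10.08 and 10.44. The difference, PML/RARA minus PLZF/RARA, was -1.28 ± 0.10 (and -1.28 within batch 1), and it is given without a test because it shares its 4 PLZF/RARA arrays with the fall just described. After RA the 16 PML/RARA arrays read from 7.70 to 8.26 with a median of 8.01, and the 8 PLZF/RARA arrays from 8.17 to 8.82 with a median of 8.50. These groups overlapped, and the remaining difference was -0.44 ± 0.07 (and -0.44 within batch 1), likewise without a test. The mean level of 8 B and plasma cell markers, of cells known for Pim2, was 6.40 in untreated PLZF/RARA and 6.89 in untreated PML/RARA, and 6.62 and 7.27 after RA. Their part in the Pim2 levels was not tested.

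By level, Pim2 in the transgenic model ran from PML/RARA with RA at 12 h (7.95) and 6 h (8.05), through PLZF/RARA with RA at 12 h (8.26), to untreated PML/RARA at 6 h (8.67), PLZF/RARA with RA at 6 h (8.68) and untreated PML/RARA at 12 h (8.72), each overlapping the next. Untreated PLZF/RARA at 12 h (9.79) and 6 h (10.26) followed, with no overlap with any lower neighbour. In the viral model the 4 RA groups ran from 7.73 to 8.06 and the 4 untreated groups from 8.50 to 8.97, each overlapping its neighbour.

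Pim3, a member that many tissues express, passed the threshold in none of the 8 RA comparisons. In transgenic PML/RARA it read 8.37, 8.38, 8.57 and 8.39 untreated and from 8.35 to 8.85 with RA at 6 h (0.17 ± 0.11, adjusted p = 0.386, interval -0.05 to 0.39). At 12 h it read 8.46, 8.21, 8.61 and 8.51 untreated and from 8.38 to 8.71 with RA (0.13 ± 0.10, adjusted p = 0.496). In PLZF/RARA at 6 h it read 8.68 and 8.76 untreated and 8.54, 8.9995, 8.75 and 9.05 with RA (0.12 ± 0.15, adjusted p = 0.768). At 12 h it read 8.42 and 8.97 untreated and 8.61, 8.69, 8.56 and 9.001 with RA (0.02 ± 0.15, adjusted p = 0.963). Untreated and RA arrays overlapped in all 4 transgenic comparisons.

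In the viral leukaemias Pim3 was higher on some RA arrays and near the untreated level on others. With wild-type Pml at 6 h the untreated arrays read 8.75, 8.35, 8.45 and 8.44, and the RA arrays from 8.62 to 9.89 with a median of 8.97. RA arrays 5 and 6 stood at 9.88 and 9.89, while 4 of the 8 read below 9. The change was 0.61 ± 0.24 (adjusted p = 0.118), with 0.83 within batch 3 and 0.38 within batch 4, and with untreated arrays of both times pooled it was 0.68 and passed the threshold (adjusted p = 0.0269). At 12 h the untreated arrays read 8.32 and 8.43 and the RA arrays 8.23, 8.48, 9.85 and 9.52, so that the RA arrays lay on both sides of the untreated pair (0.64 ± 0.34, adjusted p = 0.343).

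With Pml null at 6 h, Pim3 read 8.43, 8.49, 8.58 and 8.50 untreated and from 8.59 to 9.61 with a median of 9.08 after RA, without overlap. The change of 0.55 ± 0.24 did not pass the threshold when all viral groups shared 1 estimate of the spread (adjusted p = 0.156) and did when only these 2 groups were fitted (0.55, adjusted p = 0.0381). It was 0.61 within batch 3 and 0.49 within batch 4. At 12 h the untreated arrays read 8.56 and 8.83 and the RA arrays 8.62, 9.27, 8.65 and 9.01 (0.19 ± 0.34, adjusted p = 0.896).

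Between the fusions no Pim3 difference passed the threshold. The RA effect differed by 0.08 ± 0.13 on average (adjusted p = 0.828), 0.05 ± 0.18 at 6 h and 0.11 ± 0.18 at 12 h. Untreated PML/RARA was 0.25 ± 0.11 below PLZF/RARA (adjusted p = 0.0957), and with 1 array left out at a time the difference ran from -0.39 to -0.11. After RA it was -0.17 ± 0.08 (adjusted p = 0.0653). It came to -0.18 without the batch term (adjusted p = 0.0456) and to -0.22 without PLZF/RARA RA replicate 1 at 6 h (adjusted p = 0.0171). Of 6 alternatives that kept all groups 3 passed, with values from -0.18 to -0.10 and an adjusted p of up to 0.394. By level, all neighbours among the 8 transgenic groups, from 8.43 to 8.83, and among the 8 viral groups, from 8.37 to 9.11, overlapped.

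The Pml background made no difference that passed the threshold for any member. The RA effect with wild-type Pml minus that with Pml null, averaged over both times, was -0.17 ± 0.16 for Pim1, with a 95% interval of -0.49 to 0.15. It was 0.12 ± 0.16 for Pim2 (-0.21 to 0.46) and 0.25 ± 0.30 for Pim3 (-0.35 to 0.86), with an adjusted p of 1 for each, where 1.13% of genes passed. At 6 h the differences were -0.04, 0.19 and 0.06 for Pim1, Pim2 and Pim3 (0.356% of genes), and at 12 h -0.30, 0.06 and 0.45 (0.115% of genes).

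Untreated viral leukaemias differed between backgrounds in 20.8% of genes, and the Pim genes were not among them. The differences were 0.13 ± 0.13 for Pim1 (adjusted p = 0.623), -0.27 ± 0.13 for Pim2 (adjusted p = 0.182) and -0.16 ± 0.24 for Pim3 (adjusted p = 0.798). With 1 array left out at a time, the untreated Pim2 difference ran from -0.43 to -0.10. After RA, where 31.6% of genes differed, the 3 differences were -0.04 ± 0.09, -0.14 ± 0.09 and 0.10 ± 0.17, with adjusted p of 0.803, 0.288 and 0.76. Mature neutrophil markers differed between these backgrounds, with a mean over 10 markers of 9.64 in untreated Pml null and 11.89 in untreated wild type. Their part in the levels of the Pim genes was not tested.

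For no member did the RA effect at 12 h minus that at 6 h pass the threshold in any leukaemia type. These changes in transgenic PLZF/RARA were 0.37 ± 0.30 for Pim1, 0.06 ± 0.19 for Pim2 and -0.10 ± 0.21 for Pim3, where 0.0251% of genes passed the threshold. For Pim1 in the viral leukaemia with wild-type Pml the change was -0.47 ± 0.22 (adjusted p = 1), in a comparison where limma called 0 genes (0%), with 298 at an unadjusted p below 0.05. With Pml null the changes were -0.22 ± 0.22 for Pim1, -0.12 ± 0.23 for Pim2 and -0.36 ± 0.42 for Pim3, where 0.0351% of genes passed.

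The genes around the Pim kinases were followed through 7 lists of receptors and signal transducers, targets and parallel kinases. Most genes named from these lists were picked for large test statistics in the same 8 RA comparisons. Counts of the comparisons in which they passed therefore describe them and are no test. Among 17 measured cytokine receptor, Janus kinase and STAT genes of 20 listed, 3 rose and 3 fell in transgenic PML/RARA at 6 h, where 5.81% of all genes rose and 8.54% fell, with a list median of 0.07 against 0.02 over all genes. In PLZF/RARA 0 passed the threshold at 6 h (1.45% of all genes rose and 0.747% fell), and 1 rose at 12 h (2.46% rose and 1.57% fell). Kit, the stem cell factor receptor, fell in all 6 PML/RARA comparisons, with changes of -1.24 to -1.61. In PLZF/RARA it moved by -0.19 and -0.31, short of the threshold, and its RA effect differed between the fusions by -1.04 ± 0.20 (adjusted p = 0.000647). Csf3r, the G-CSF receptor, changed by -0.89 and -0.80 in transgenic PML/RARA, and Il6st, the gp130 chain of the IL-6 receptor family, by -0.60 and -1.17. In the viral leukaemias Il6st changed by -1.05 and -1.52 with Pml null and by -0.18 and -0.17 with wild-type Pml. Stat3, the factor downstream of Csf3r and Il6st, rose in 7 of 8 comparisons, from 0.22 in the viral wild type at 6 h to 0.64 in Pml null at 12 h. Stat5a, a main inducer of Pim genes, passed the threshold in none and moved by 0.07 or less in 7 of 8 comparisons. Jak2, a Janus kinase, rose by 0.98 in viral Pml null at 12 h and moved by 0.03 to 0.19 elsewhere, short of the threshold. Stat3, Stat5a and the other genes outside the rule for named genes were singled out after their values had been seen.

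Of 10 feedback and target genes of STAT5, 1 rose and 1 fell in transgenic PML/RARA at 6 h (5.81% and 8.54% of all genes), with a median of 0.23 against 0.02 over all genes. In PLZF/RARA 1 fell at each time, where 0.747% and 1.57% of all genes fell. That gene was Socs1, an inhibitor of Janus kinases. Socs1 changed by -0.66 and -0.88 in PLZF/RARA, fell as well in viral PML/RARA with wild-type Pml (-0.52 and -0.68), and moved by 0.02 and 0.13 in transgenic PML/RARA, a difference in RA effect of 0.85 ± 0.12 (adjusted p = 1.76e-05). Socs1 was lower in untreated PML/RARA than in untreated PLZF/RARA, by -1.61 ± 0.10 (adjusted p = 6.34e-15), where 25.3% of all genes differed. Bcl6, a transcriptional repressor, changed by -0.66 in transgenic PML/RARA and -0.91 in the viral wild type at 6 h, and Osm, the cytokine oncostatin M, rose by 0.62 and 0.73 in the same comparisons. In viral Pml null Bcl6 moved by -0.32 at 6 h and 0.10 at 12 h, short of the threshold, and Osm rose by 0.81 at 6 h.

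Of 10 measured NF-κB genes of 12 listed, 3 rose and 2 fell in transgenic PML/RARA at 6 h (5.81% and 8.54% of all genes), with a median of 0.00 against 0.02 over all genes. Rel, the subunit c-Rel, rose in 8 of 8 comparisons, by 0.66 to 0.93 outside the Pml null background and by 1.48 and 1.22 within it. Nfkbia, which encodes the inhibitor IκBα, rose in 7 of 8 comparisons, by 1.14 to 1.76, and by 0.27 in PLZF/RARA at 12 h, short of the threshold. Tnfaip3, the deubiquitinase A20, fell in 4 comparisons (-0.25 to -0.52). Nfkb2 passed the threshold in 2 comparisons and moved by -0.43 to 0.07 over the 8. The part of these genes in the Pim1 changes was not tested.

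Among 17 measured substrates of Pim kinases in survival and the cell cycle, 2 rose and 4 fell in transgenic PML/RARA at 6 h, where 5.81% and 8.54% of all genes did (median -0.04 against 0.02 over all genes). In viral Pml null at 6 h 4 rose and 5 fell (4.97% and 6.38% of all genes), and in PLZF/RARA 1 fell at each time (0.747% and 1.57%). Foxo3, a pro-apoptotic transcription factor that Pim and AKT kinases inactivate, rose in all 6 PML/RARA comparisons, by 0.71 to 1.21, and moved by 0.34 and 0.02 in PLZF/RARA. The RA effect on Foxo3 differed between the fusions by 0.62 ± 0.13 (adjusted p = 0.00162). Myc, which Pim kinases stabilise as a protein, fell in 5 comparisons (-0.49 to -1.41). Short of the threshold, it moved by -0.39 and 0.08 in PLZF/RARA and by -0.32 in viral Pml null at 12 h. A difference between the fusions in the RA effect on Myc is not given here. Chek1, the checkpoint kinase, and Skp2, a ubiquitin ligase subunit that targets p27, each fell in 3 comparisons.

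Of 11 measured genes of translation control and mTOR signalling of 14 listed, 0 rose and 1 fell in transgenic PML/RARA at 6 h (5.81% and 8.54% of all genes), and 0 passed the threshold in PLZF/RARA at either time, where 1.45% and 2.46% of all genes rose and 0.747% and 1.57% fell. Eif4b, an initiation factor that Pim kinases phosphorylate, changed by -0.25 in transgenic PML/RARA at 12 h, and Eif4e, which binds the cap, by -0.36 at 6 h. Of 9 measured parallel survival kinases, 0 passed the threshold in transgenic PML/RARA at 6 h (5.81% of all genes rose and 8.54% fell), and 3 rose in Pml null at 12 h (4.22% of all genes rose). In transgenic PML/RARA at 12 h 1 rose and 2 fell (9.88% and 11.7% of all genes). In Pml null at 6 h 2 rose and 2 fell (4.97% and 6.38%), and in viral wild type at 6 h 1 rose and 1 fell (5.44% and 4.44%). In PLZF/RARA at 6 h 1 fell (0.747%). Akt1 rose in 5 comparisons by 0.17 to 0.50, while Sgk3 fell in 3 and Pik3cd in 2. Sgk1, a kinase related to AKT, rose by 0.91 and 1.67 in Pml null and by no more than 0.52, short of the threshold, elsewhere, and its RA effect differed between the Pml backgrounds by -0.91 ± 0.14 (adjusted p = 0.000539). Hsp90aa1, a chaperone of Pim proteins, changed by -0.35 and -0.30 in transgenic PML/RARA, as 1 of 5 measured genes of Pim protein stability to fall at each time (8.54% and 11.7% of all genes fell).

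**Figure D4:**
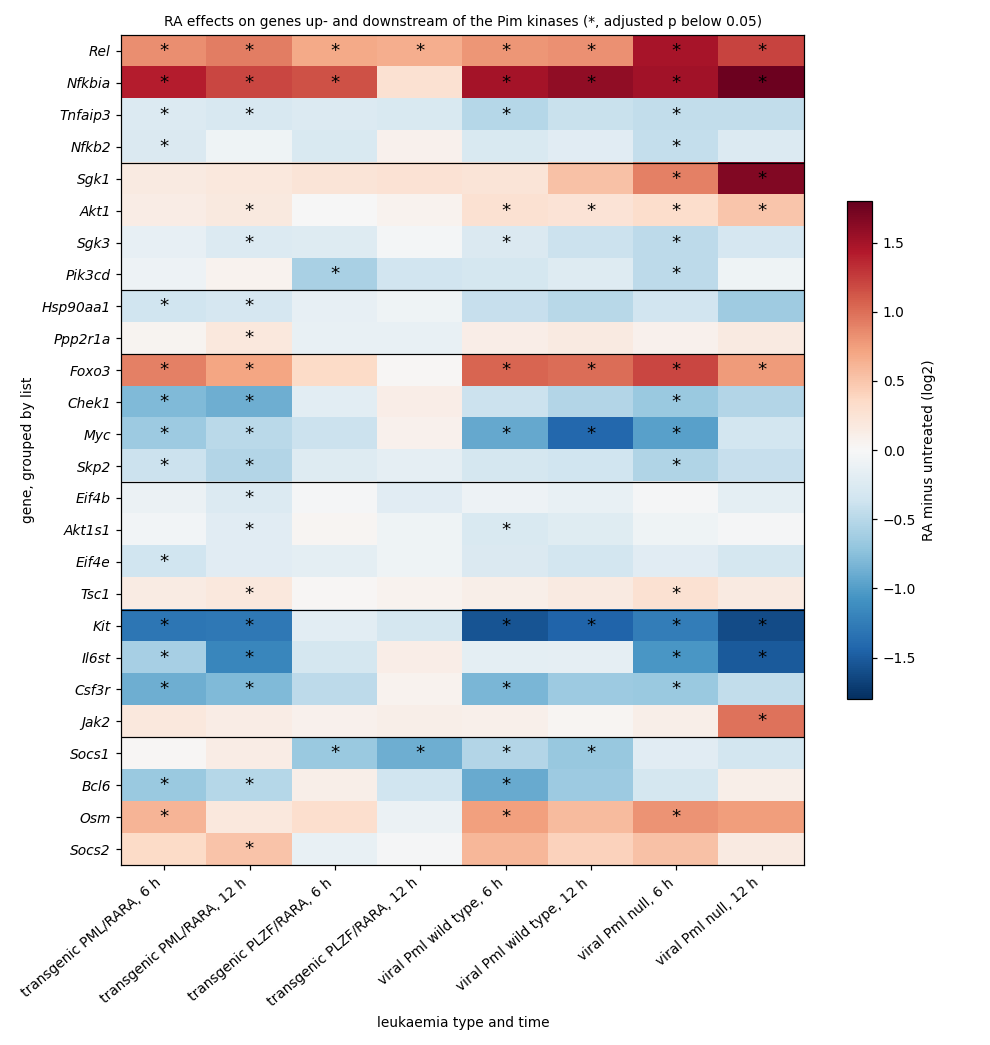
RA effects (log2, colour) of the named genes around the Pim kinases, in rows grouped by list, across the 8 comparisons of leukaemia type and time; a star marks an adjusted p below 0.05. Rel is starred in every column, Kit and Foxo3 in the 6 PML/RARA columns, and Socs1 in the PLZF/RARA and viral wild-type columns.

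The members differed among themselves in how they followed the groups. Over the 16 group means, centred within each model, Pim1 and Pim3 had a Pearson correlation of 0.863, Pim1 and Pim2 of -0.451, and Pim2 and Pim3 of -0.247. These are descriptions over groups that share batches and the same contrast of RA with untreated, and they carry no p. By the same measure, over genes whose group means varied by an SD of at least 0.25, the gene closest to Pim1 was Dusp5, a phosphatase of ERK, at 0.987. Sqstm1, the autophagy receptor p62 (0.968), Stk10, a kinase of lymphocytes (0.967), Stard10, a lipid transfer protein (0.963), and Mob3a (0.962) followed. Dusp5 rose by 1.45 and 1.27 in transgenic PML/RARA, by 1.37 to 1.78 in the viral leukaemias, and moved by 0.33 and 0.26 in PLZF/RARA.

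The profile closest to that of Pim2 was Cd244a, the lymphoid and NK receptor 2B4, at 0.918. It fell in 7 of 8 comparisons (-0.77 to -1.38) and stood at -0.74 in PLZF/RARA at 6 h, just short of the threshold (adjusted p = 0.0527). Zdhhc8, a palmitoyl transferase (0.908), Orai3, a calcium channel subunit (0.901), Hvcn1, the voltage-gated proton channel (0.889), and Dbp, a circadian transcription factor (0.885), followed. For Pim3 the closest were Usp3, a ubiquitin protease (0.97), Zfp945 (0.936), Fam160b1 (0.92), Vps37b, a subunit of the ESCRT machinery (0.906), and Pde4b, a cAMP phosphodiesterase (0.903). Fam160b1 rose in the 6 PML/RARA comparisons, by 0.64 to 1.60, where Pim3 passed the threshold in none.

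**Figure D5:**
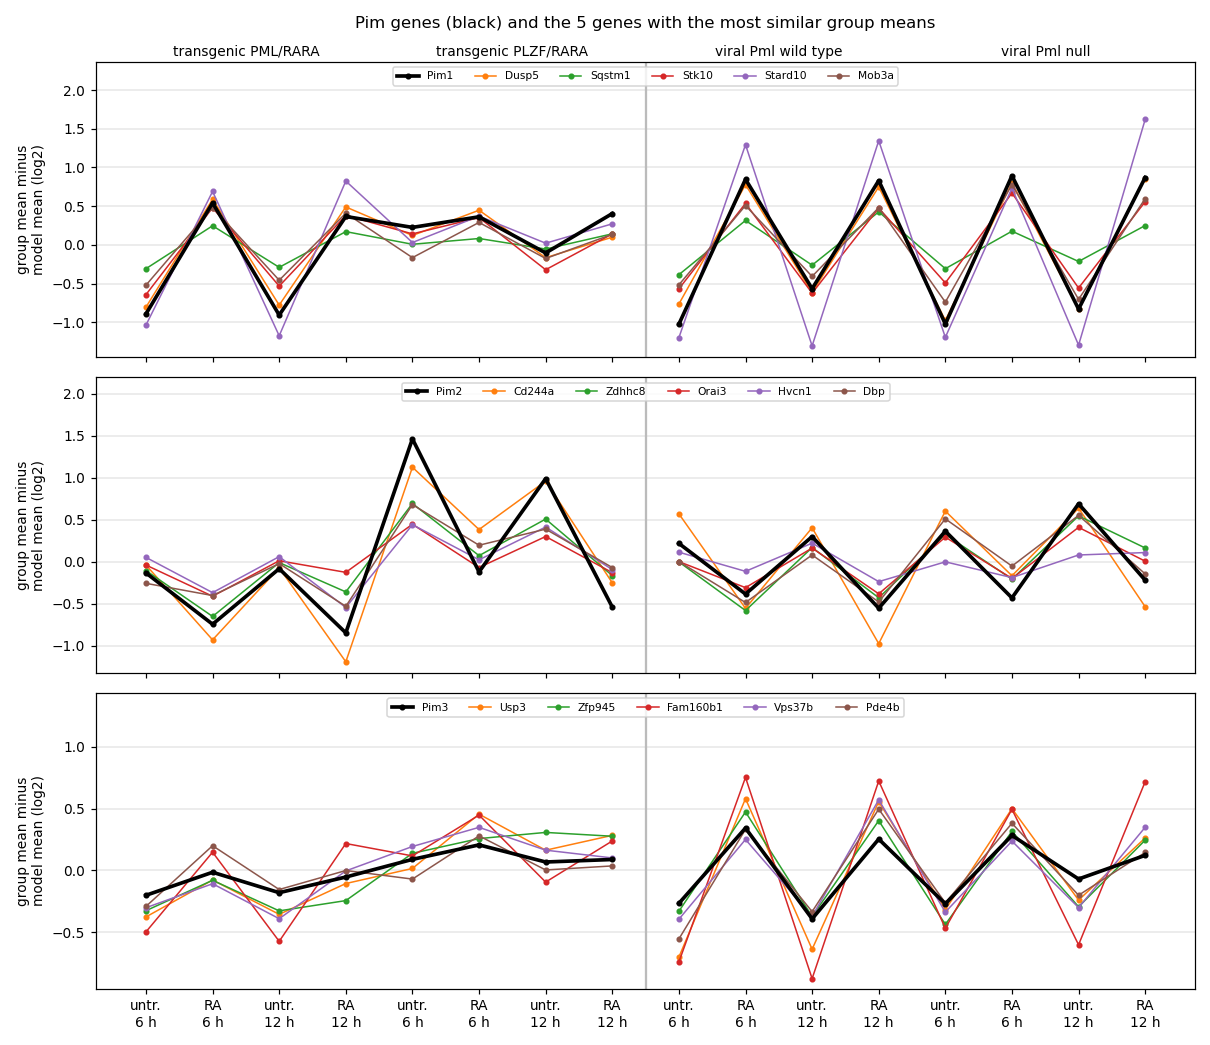
Group means of Pim1, Pim2 and Pim3 (black) and of the 5 genes with the highest Pearson correlation to each over 16 groups (coloured), as log2 difference from the mean of the groups of that model. The Pim1 panel alternates between untreated and RA groups, with smaller steps in PLZF/RARA, and Pim2 reaches its highest point, 1.46, in untreated PLZF/RARA at 6 h.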

How the data were processed

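RNA of 72 bone marrow samples was hybridised to 1-colour mouse gene arrays. The deposited values are log2 expression per probe set, which the authors made with RMA and the affy package, per the submitters' processing notes, with no versions named. These values were used as deposited. Of 35556 probe sets, 21789 had 1 gene symbol, and the brightest per symbol gave 19938 genes. For each model (36 arrays each) limma 3.58.1 in R 4.3.3 fitted 1 coefficient per group with the labelled batch as an additive term. P-values are two-sided, from limma's moderated statistics, with Benjamini-Hochberg adjustment over all 19938 genes, and a gene was called at an adjusted p below 0.05. The models share no batch and were fitted apart. The fit was tested on simulated data. Array medians ran from 6.556 to 6.805, and the number of arrays limits the precision.

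The members and gene lists were chosen with earlier results of these data known. Pathway genes were named by the size of their test statistic, called in at least 1 comparison, and similar genes by correlation over group means. Comparisons of RA-treated arrays, fits within the batch that holds all groups, and the octamer motif were added after values had been seen. Alternatives covered the batch term, dim genes, the samples fitted, limma's variance settings, quantile normalization and each array left out.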

Additional observations from a re-analysis of the deposited data

Results flagged for a closer look

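The RA effect on Pim1 was larger in transgenic PML/RARA than in PLZF/RARA by 1.07 ± 0.18 (SE) averaged over both times and by 1.37 ± 0.26 at 6 h, and the test of the difference itself passed the threshold in both; at 12 h the difference was 0.77 ± 0.26 and did not pass (adjusted p = 0.109). For Pim2 the corresponding differences were 0.84 averaged, 0.91 at 6 h and 0.77 at 12 h, a smaller fall in PML/RARA; they rest on a fall in PLZF/RARA that was known beforehand and are given without a p.

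Dixon's test marked 3 single arrays among the 36 group values it was applied to, where chance marks about 1 in 20. In viral Pml null with RA at 12 h, replicate 2 read 7.671 for Pim2 and the nearest of the other arrays 8.174. In viral Pml wild type with RA at 12 h, replicate 4 read 7.4156 for Pim2 and the nearest 7.811. In untreated transgenic PML/RARA at 6 h, replicate 3 read 8.574 for Pim3 and the nearest 8.390.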

How the results depend on the processing

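Outside the fits that leave out an array, 429 values under an alternative kept their direction and their side of the threshold, 5 came to pass it, 2 no longer passed it and 2 changed sign. The 429 include the Pim2 values that are given above without a test, for which the threshold carries no weight. The Pim3 difference between RA-treated fusions passed without the batch term (-0.18), without dim genes (-0.17) and with batch as a random block (-0.18). The Pim3 RA effect passed in viral wild type at 6 h with untreated arrays pooled over times (0.68) and in Pml null at 6 h when only the groups compared were fitted (0.55). The Pim2 RA effect did not pass in viral wild type at 6 h within batch 4 (-0.38) or in Pml null at 12 h with only the groups compared (-0.91). Within batch 3 the RA effect at 12 h minus that at 6 h turned to -0.19 for Pim3 in wild type and to 0.05 for Pim2 in Pml null. The cause was not tested. Leaving out 1 array at a time gave these ranges where a call or a sign changed. In the transgenic model, the RA effect on Pim3 in PLZF/RARA at 12 h ran from -0.25 to 0.29. The difference in RA effect between fusions ran from 0.58 to 0.95 for Pim1 at 12 h. For Pim2, where it is a description without a test, it ran from 0.73 to 1.10 at 6 h and from 0.63 to 0.90 at 12 h. For Pim3 it ran from -0.06 to 0.21 on average, -0.05 to 0.12 at 6 h and -0.17 to 0.38 at 12 h. The Pim3 difference between fusions ran from -0.39 to -0.11 untreated and from -0.22 to -0.12 after RA. The change from 6 h to 12 h in PLZF/RARA ran from -0.13 to 0.24 for Pim2 and -0.37 to 0.18 for Pim3, and for Pim3 in PML/RARA from -0.12 to 0.02. In the viral model, the Pim2 RA effect at 12 h ran from -0.90 to -0.75 in wild type and from -1.24 to -0.58 in Pml null. The difference in RA effect between Pml backgrounds ran from -0.12 to 0.03 for Pim1 at 6 h. For Pim2 it ran from -0.04 to 0.29 on average and -0.27 to 0.39 at 12 h, and for Pim3 from -0.05 to 0.18 at 6 h. Levels differed between backgrounds by -0.43 to -0.10 for untreated Pim2, by -0.12 to 0.04 for Pim1 after RA and by -0.04 to 0.23 for Pim3 after RA. The change from 6 h to 12 h ran from -0.44 to 0.21 for Pim2 in Pml null and from -0.24 to 0.30 for Pim3 in wild type. Over all genes, 5 passed for the change from 6 h to 12 h in PLZF/RARA, against 3 with a trended robust prior and 12 without dim genes. For the difference in RA effect between Pml backgrounds at 12 h, 23 passed, against 9 without the batch term and 13 without dim genes. The alternative of each other probe set was not run, because each member had 1. No paired analysis was run, because the labels give every array the same replicate number. Array titles also carry a serial code, but the labels do not say which arrays belong together.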
